A study of Mus musculus with 40 samples.

Results

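Immunoglobulin variable (V) segment genes were followed in whole-blood mRNA of 40 mice. They were taken as every gene whose annotated biotype is IG_V_gene and whose name starts with Ighv (heavy chain), Igkv (kappa light chain) or Iglv (lambda light chain). This gave 216 of the 54532 genes in the table. They are 113 Ighv genes on chromosome 12, 100 Igkv genes on chromosome 6 and 3 Iglv genes on chromosome 16 (GRCm38). The choice used no expression value.

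A B cell assembles its antibody genes by joining single V segments to D and J segments in its own DNA, so that each B cell transcribes mainly the V segments it has joined. V transcripts in blood therefore come from B cells and from antibody-secreting cells, and the mixture of V segments reflects the receptors of many clones. Mouse blood B cells mostly carry kappa light chains, and the lambda locus has very few V segments.

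All mice were female and 7 weeks old. Uninduced mice (3 Ifnar1+/+ and 3 labelled Ifnar1-/-) had no pristane, a hydrocarbon oil known for bringing on lupus-like disease in mice. Ifnar1+/+ mice were given PBS or spermine, a polyamine, over 3 days, then pristane, and were bled on day 4 or day 6 (6 mice in each of the 4 groups). Mice labelled Ifnar1-/-, named for a targeted type I interferon receptor gene, were given PBS and pristane and bled on day 4 or day 6 (5 mice each). No pretreatment is given in the labels for uninduced animals, so in every comparison with them the PBS and the pristane cannot be told apart. Whole-gene Ifnar1 was 13.7 to 23.9 FPKM (fragments per kilobase of gene, scaled for library size) in mice labelled Ifnar1-/- and 5.85 to 10.3 FPKM in Ifnar1+/+ mice. The targeted gene was thus not low in them, and they are named by their label.

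Each mouse is a single library, numbered within its group as in the labels. Libraries held 9156431 to 14058050 fragments, of which 1036 to 6856 lay on V genes. A single fragment on a V gene of 360 bases was worth 0.105 to 0.574 FPKM, depending on the library. The 17 B cell markers, such as the antigen-receptor subunit genes Cd79a and Cd79b, summed to 541 to 1076 FPKM per mouse. Of 6 genes of B cell precursors, such as the recombinase genes Rag1 and Rag2, none reached the level needed for testing, and they summed to 0.202 to 1.95 FPKM. In whole blood, fewer B cells and less V transcript per B cell cannot be told apart.

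The first 300 coding bases of 5 V genes are shown because the results turn on them. Iglv1 and Iglv2 had the smallest adjusted p among V genes in the comparisons of genotype after pristane and of spermine on day 4. Iglv3 is the lambda gene that differs from both. Igkv1-117 and Ighv1-26 were the kappa and the heavy chain V genes with the highest mean FPKM. Sequences are from GENCODE M21 (GRCm38), 5′ to 3′ on the coding strand. Capitals mark bases that lie in a stretch of 50 bases found unchanged in the coding sequence of another of the 216 genes, where a short read could be assigned to either gene. Iglv1 lies at chr16:19085017-19085500, Iglv2 at chr16:19260401-19260859 and Iglv3 at chr16:19241207-19241690, all on the minus strand. Igkv1-117 lies at chr6:68121046-68121827 on the plus strand and Ighv1-26 at chr12:114788372-114788805 on the minus strand.
Iglv1: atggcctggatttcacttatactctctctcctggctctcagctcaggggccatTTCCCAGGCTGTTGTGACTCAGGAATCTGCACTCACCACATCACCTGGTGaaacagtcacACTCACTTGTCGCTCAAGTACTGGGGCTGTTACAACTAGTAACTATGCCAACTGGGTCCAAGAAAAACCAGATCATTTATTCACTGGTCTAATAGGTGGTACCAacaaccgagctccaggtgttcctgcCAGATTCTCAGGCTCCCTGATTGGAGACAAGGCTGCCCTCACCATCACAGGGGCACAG
Iglv2: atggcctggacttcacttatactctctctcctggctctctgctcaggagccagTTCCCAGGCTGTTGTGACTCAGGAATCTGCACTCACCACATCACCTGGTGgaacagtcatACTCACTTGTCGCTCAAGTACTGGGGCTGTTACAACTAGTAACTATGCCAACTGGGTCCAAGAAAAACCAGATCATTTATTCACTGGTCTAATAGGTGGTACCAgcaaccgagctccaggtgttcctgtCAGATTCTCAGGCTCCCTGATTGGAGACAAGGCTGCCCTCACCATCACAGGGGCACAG
Iglv3: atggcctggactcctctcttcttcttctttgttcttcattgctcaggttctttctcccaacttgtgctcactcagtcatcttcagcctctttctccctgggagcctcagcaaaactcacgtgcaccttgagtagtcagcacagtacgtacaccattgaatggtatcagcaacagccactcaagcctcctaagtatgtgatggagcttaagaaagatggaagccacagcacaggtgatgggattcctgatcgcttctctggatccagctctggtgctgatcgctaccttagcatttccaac
Igkv1-117: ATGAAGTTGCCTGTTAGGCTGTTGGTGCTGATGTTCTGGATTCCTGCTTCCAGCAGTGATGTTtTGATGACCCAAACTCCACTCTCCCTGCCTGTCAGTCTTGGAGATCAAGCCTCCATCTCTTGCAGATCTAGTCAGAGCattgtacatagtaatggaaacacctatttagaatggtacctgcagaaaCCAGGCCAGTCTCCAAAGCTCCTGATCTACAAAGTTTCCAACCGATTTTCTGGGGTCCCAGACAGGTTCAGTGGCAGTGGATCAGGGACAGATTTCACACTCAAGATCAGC
Ighv1-26: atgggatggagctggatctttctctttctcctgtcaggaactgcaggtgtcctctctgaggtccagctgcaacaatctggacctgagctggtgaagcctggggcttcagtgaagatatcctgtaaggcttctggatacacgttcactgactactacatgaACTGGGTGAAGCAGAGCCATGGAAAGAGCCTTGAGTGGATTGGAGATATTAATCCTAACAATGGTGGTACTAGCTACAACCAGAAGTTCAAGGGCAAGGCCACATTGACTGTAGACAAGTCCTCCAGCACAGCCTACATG
Iglv1 and Iglv2 were identical at 340 of 351 aligned bases over the whole coding sequence (96.87%), whereas Iglv3 was identical to Iglv1 at 56.86% and to Iglv2 at 56.29% of aligned bases. Of the 50-base windows of Iglv1, 25.17% also occurred in Iglv2, and none of those of Iglv3 occurred in another V gene. For Igkv1-117 the share was 43.55%, most with Igkv1-110, and for Ighv1-26 it was 35.76%, most with Ighv1-34. Among all 216 genes, 49 shared no such window with another and 30 shared at least 50% of theirs. The sources used here do not say how fragments that fit more than 1 place were counted. The split of fragments between Iglv1 and Iglv2, and between other close pairs, is uncertain for that reason.

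V transcription was spread over many genes. At least 1 fragment was found for 209 genes, 81 of them in all 40 mice (32 Ighv, 46 Igkv and 3 Iglv) and 128 in some mice. Another 7 (Igkv1-35, Ighv5-12-4, Ighv7-2, Ighv16-1, Ighv1-16, Ighv1-24 and Ighv8-13) had 0 of 131141 V fragments, which allows a share of up to 0.00229%. This limit counts 3 fragments and covers counting error only. The 28 most abundant genes held 50% of all V fragments, and the top 3 held 14.2%, the top 10 29.5% and the top 20 42.6%.

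The highest mean levels over the 40 mice were those of the lambda genes Iglv1 (39.7 FPKM, range 20.7 to 70.8) and Iglv3 (32.1 FPKM, range 15.0 to 63.0). They were followed by the kappa genes Igkv1-117 (28.3 FPKM), Igkv1-135 (17.9 FPKM), Igkv1-110 (17.8 FPKM), Igkv6-15 (16.8 FPKM) and Igkv10-96 (16.8 FPKM) and by the heavy chain gene Ighv1-26 (16.8 FPKM). The third lambda gene, Iglv2, averaged 11.1 FPKM. FPKM is per length, but the uncertain split of fragments between close genes limits how far these levels can be compared between genes. From Igkv1-135 down to Ighv1-26 the means lay closer together than the spread of each gene between mice. Among heavy and kappa chain V genes, Igkv1-117 was the single one to pass 10% of its chain's V fragments in any mouse, with 10.4% of the Igkv fragments of mouse 4 labelled Ifnar1-/- on day 6.

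By family, Ighv1 (53 genes, the large J558 family) held 57.4% of the Ighv fragments, between 48.5% and 61.0% in single mice. The next were Ighv5 (8.42%), Ighv3 (5.40%), Ighv9 (5.25%) and Ighv2 (5.04%). Among kappa genes, the families Igkv1 (18.5%, 13.8% to 24.1% in single mice), Igkv6 (15.3%), Igkv4 (12.4%, from 26 genes), Igkv3 (10.0%) and Igkv8 (7.25%) led. Within the lambda fragments Iglv1 took 48.0% (28.9% to 60.9%), Iglv3 39.5% (19.2% to 61.4%) and Iglv2 12.5% (5.59% to 20.3%).

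The 38 Ighv genes nearest to the constant gene Ighm held 26.3 ± 2.45% of Ighv fragments (mean ± SD over 40 mice), the middle 38 held 35.8 ± 2.33% and the farthest 37 held 37.9 ± 2.35%. Of the kappa fragments, 51.7 ± 2.27% were on the 38 Igkv genes that lie on the same strand as the constant gene Igkc and the rest on the 62 of the other strand.

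The mixture of V genes was compared between mice by the Morisita index, which is 1 for libraries with the same V shares and corrects for depth. It had a median of 0.954 over 86 pairs of mice of the same group (0.860 to 0.993). It was 0.950 over 343 pairs from different groups of the same genotype and 0.945 over 351 pairs that cross the genotypes.

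In uninduced Ifnar1+/+ mice the summed level of all V genes was 1144, 794 and 1088 FPKM (1009 ± 188, mean ± SD). After PBS and pristane it was 747 to 1034 FPKM on day 4 (median 846, mean 852 ± 103, 6 mice) and 693 to 959 FPKM on day 6 (median 795, mean 802 ± 91.2, 6 mice). The ranges overlapped, since the lowest uninduced mouse lay within both.

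In mice labelled Ifnar1-/- the summed V level was 929, 816 and 816 FPKM without pristane (854 ± 65.4). It was 550, 725, 530, 594 and 758 FPKM on day 4 (631 ± 104) and 538, 560, 499, 619 and 480 FPKM on day 6 (539 ± 54.3). All mice of both days lay below all uninduced mice of that label, at 0.740 and 0.632 times their mean. A fixed total of all fragments, hemoglobin included, turned the day 4 ratio upwards (log2 0.28 against -0.44 as deposited), while on day 6 it stayed lower (-0.99 against -0.66). The sum of the 17 B cell markers went with it, at 847 ± 25.1 FPKM in uninduced mice, 669 ± 84.3 on day 4 and 608 ± 82.9 on day 6, again with no overlap. The 7 neutrophil markers, such as the calprotectin genes S100a8 and S100a9, moved the other way, with a sum of 494 to 676 FPKM in uninduced mice, 5139 to 6602 on day 4 and 4384 to 7356 on day 6. Limma called 7 of 7 higher on both days (beside 6.64% and 8.57% of all genes as deposited), under both fixed totals too. Under those without and with hemoglobin, 737 and 2246 of all 11829 genes were higher on day 4 and 429 and 261 on day 6. In Ifnar1+/+ mice the sum of the neutrophil markers was 231 to 461 FPKM without pristane, 748 to 3322 on day 4 and 1107 to 4517 on day 6. As deposited, 2 of 10 T cell markers were lower on each day in mice labelled Ifnar1-/- (beside 1.49% of all genes on day 4 and 3.19% on day 6). Their sums were 210 to 215 FPKM without pristane, 141 to 192 on day 4 and 136 to 212 on day 6. Of 5 natural killer cell markers 1 was lower on day 4 and 0 on day 6 (57.7 to 109, 27.5 to 64.9 and 34.8 to 71.3 FPKM). Under a fixed total without and with hemoglobin, 0 and 0 T cell markers were lower on day 4 and 5 and 0 on day 6. For the natural killer cell markers these counts were 0 and 0, then 2 and 0. Of all 11829 genes, 86 and 30 were lower on day 4, then 1691 and 71 on day 6. None of these 22 markers was at 0 in any mouse, and the part of these cells in the V sums was not tested.

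After spermine and pristane, the summed V level of Ifnar1+/+ mice was 591 to 828 FPKM on day 4 (median 703, mean 704 ± 84.1) and 662 to 786 FPKM on day 6 (median 716, mean 719 ± 45.9). It overlapped with that of PBS-treated mice on both days. The ratio was 0.826 on day 4 and 0.896 on day 6, and both turned upwards with libraries scaled to a fixed total (log2 0.43 without and 0.73 with hemoglobin on day 4, 0.20 and 0.42 on day 6). Hemoglobin and other red-cell transcripts take a large and variable part of these libraries. As deposited, 4 of 7 neutrophil markers were higher (beside 2.65% of all genes) and 1 was lower (6.48%) after spermine on day 4. Their sums were 2005 to 4578 against 748 to 3322 FPKM. On day 6, 0 of 7 were called (3101 to 9197 against 1107 to 4517 FPKM). Under the fixed totals without and with hemoglobin, 5 and 5 were higher and 1 and 0 lower on day 4, and 0 and 4 were higher on day 6. Of all 11829 genes, 7832 and 9163 were higher and 497 and 393 lower on day 4, and 218 and 3584 were higher on day 6. The part of these markers was not tested. On day 4 the median of 5 red-cell genes differed by -3.35 (log2) between spermine and PBS, with 4 of them lower.

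**Figure D1:**
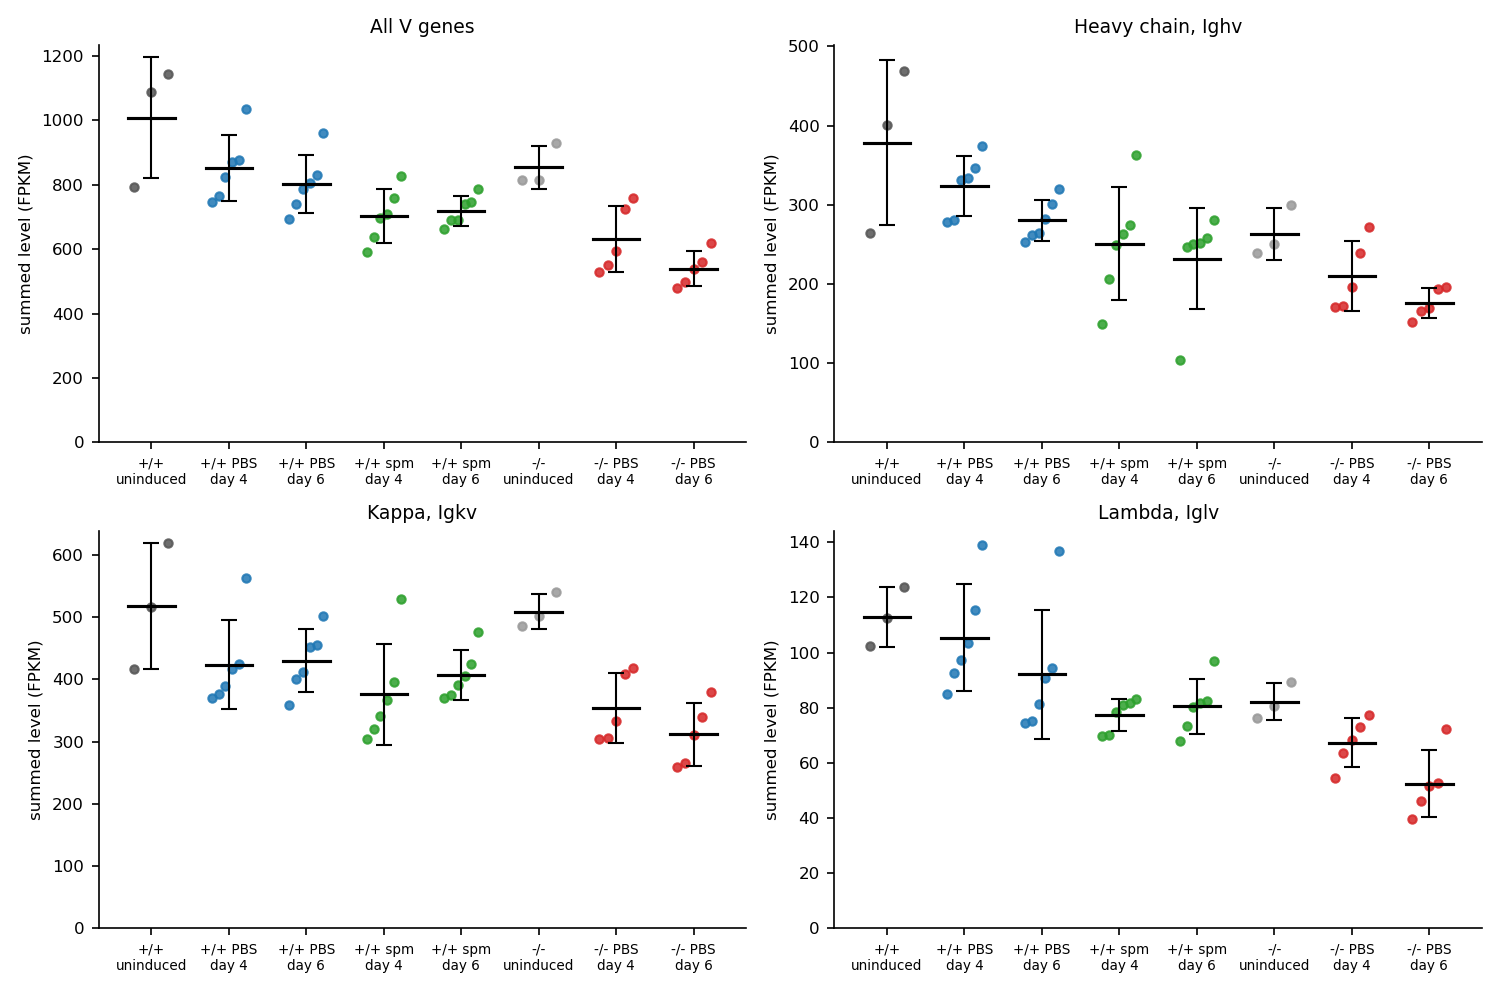
Summed FPKM of all V genes and of the heavy chain, kappa and lambda V genes (vertical axes, as deposited) in each mouse (points) of the 8 groups (horizontal axis, with +/+ for Ifnar1+/+, -/- for mice labelled Ifnar1-/- and spm for spermine), with mean and SD as bars. In the sum of all V genes, mice labelled Ifnar1-/- on day 6 (480 to 619 FPKM) sit below all uninduced mice of that label. They also sit below all PBS-treated Ifnar1+/+ mice of day 6. The lower level of the spermine groups in that sum turns higher under a fixed total of fragments. So does that of the mice labelled Ifnar1-/- on day 4 against Ifnar1+/+ mice.

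Between genotypes, on day 6 every mouse labelled Ifnar1-/- was below every PBS-treated Ifnar1+/+ mouse in summed V level as deposited (0.672 times, and log2 -0.57 as deposited, -0.68 and -0.73 under fixed totals). On day 4, 4 of 5 were below all Ifnar1+/+ mice (0.741 times), and that ratio turned upwards under a fixed total (log2 0.22 without and 0.59 with hemoglobin). Without pristane the ranges overlapped (0.846 times). As deposited, heavy chain V genes summed to 210 ± 44.1 against 324 ± 37.9 FPKM on day 4 and 175 ± 18.9 against 280 ± 25.9 FPKM on day 6, with no overlap on either day. Lambda V genes did not overlap either, at 67.4 ± 8.86 against 105 ± 19.3 FPKM on day 4 and 52.5 ± 12.2 against 92.2 ± 23.3 FPKM on day 6. As a log2 ratio of means, the day 4 difference of heavy chain genes was -0.62 as deposited. It turned upwards to 0.066 and 0.43 under a fixed total without and with hemoglobin. For lambda genes it was -0.65, then -0.035 (0.0635 as a difference of mean log2 values) and 0.32. The ranges overlapped under both fixed totals. On day 6 both chains stayed lower (-0.68, -0.76 and -0.79 for heavy chain genes, -0.81, -0.95 and -1.01 for lambda genes). Their ranges again overlapped under the fixed totals. Kappa V genes overlapped on both days (0.836 and 0.725 times). Beside these sums, limma called 7 of 7 neutrophil markers higher on day 4 (9.23% of all genes) and 3 of 7 on day 6 (1.52%) in mice labelled Ifnar1-/- as deposited. Of the T cell markers 3 of 10 were higher and 1 lower on day 4 (9.26% of all genes lower), and of the natural killer cell markers 1 of 5 was higher on day 4, with 0 of either list called on day 6. Under the fixed totals without and with hemoglobin, 7 and 7 neutrophil markers were higher on day 4. So were 9 and 10 T cell and 3 and 5 natural killer cell markers, with 0 lower, beside 6455 and 8568 of all 11829 genes. On day 6, 1 and 0 neutrophil markers were higher, beside 59 and 28 of all genes, and 0 T cell or natural killer cell markers were called. Their part in the V sums was not tested.

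Relative to the B cell markers, the V sums did not separate any pair of groups. The ratio of summed V level to the summed 17 B cell markers ran from 0.615 to 1.26 over the 40 mice, and the ranges overlapped in all 10 comparisons. The ratio of summed Ighv to Ighm, the constant gene of IgM, overlapped in all 10 too, as did the ratio of summed Igkv to Igkc.

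Without pristane, the shares of the chains did not overlap between the genotypes. Lambda V genes made up 14.3 ± 0.613% of the light chain V fragments in the 3 uninduced mice labelled Ifnar1-/- (13.6 to 14.7%) and 18.7 ± 2.81% in the 3 uninduced Ifnar1+/+ mice (17.0 to 21.9%), with no overlap. On day 4 the shares were 16.6 ± 2.00% and 20.5 ± 2.31%, with 4 of 5 mice below all Ifnar1+/+ mice, and on day 6 they were 14.8 ± 1.96% and 18.0 ± 2.29%, with 3 of 5 below. A share within the same library does not depend on the scaling. Heavy chain V genes made up 30.8 ± 1.53% of all V FPKM in uninduced mice labelled Ifnar1-/- and 37.2 ± 5.22% in uninduced Ifnar1+/+ mice, also with no overlap. After pristane the heavy chain shares overlapped, at 33.1 ± 1.68% and 38.2 ± 3.64% on day 4 (1 of 5 mice below all Ifnar1+/+ mice) and at 32.8 ± 5.06% and 35.1 ± 2.13% on day 6 (2 of 5 below all and 1 above all).

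Spermine-treated mouse 2 of day 4 and mouse 2 of day 6 stood apart, with heavy chain shares of 19.7% and 15.7% where the other 38 mice had 26.8% or more. Their Ighv sum was 0.301 and 0.185 times Ighm, and Ighm itself was 498 and 562 FPKM.

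**Figure D2:**
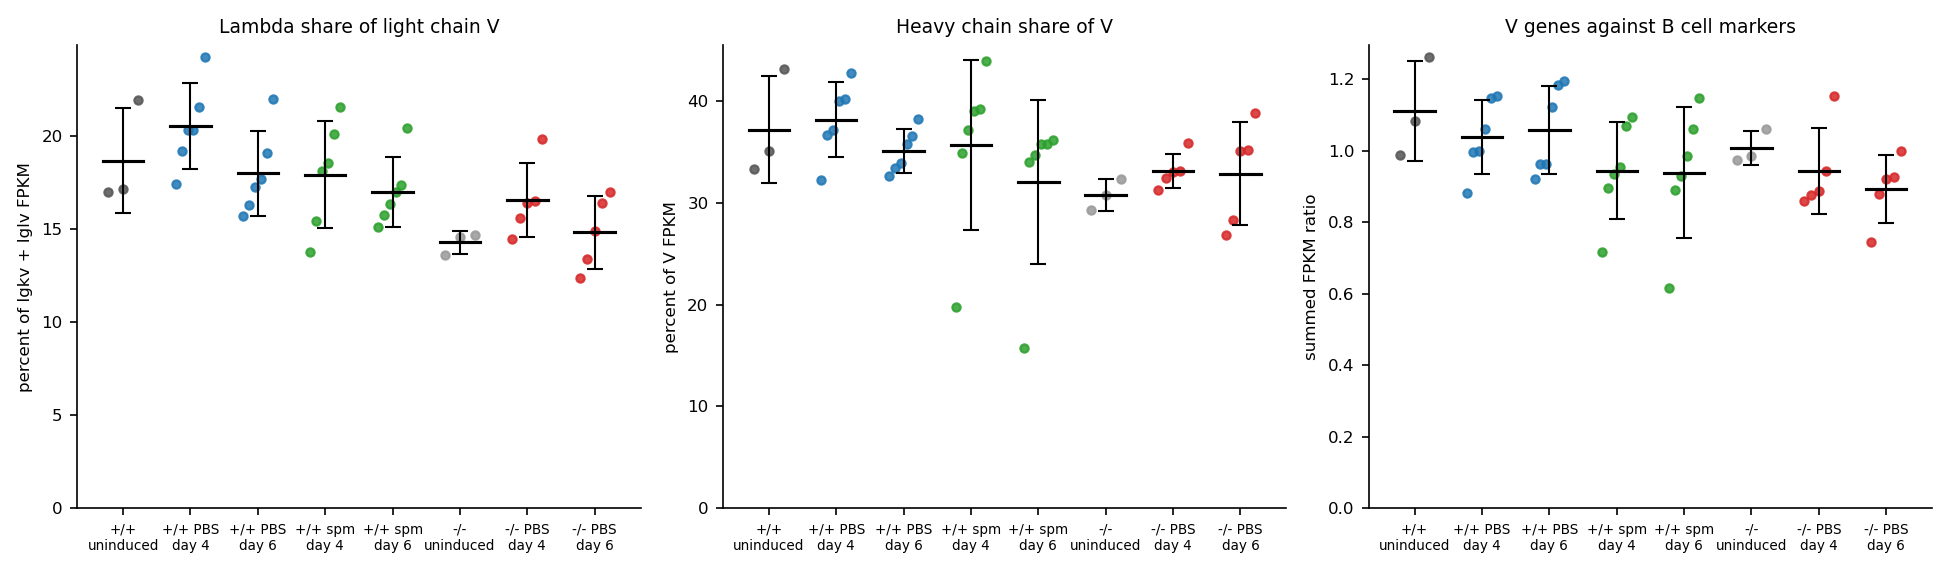
Lambda genes as a percentage of light chain V fragments (left), heavy chain genes as a percentage of all V FPKM (middle) and the ratio of summed V to summed B cell marker FPKM (right) in each mouse (points), with mean and SD as bars. The left axis names FPKM, but its values are shares of fragments. The groups are as in the plot of V sums. The 3 uninduced mice labelled Ifnar1-/- have lambda shares of 13.6 to 14.7%, below the 17.0 to 21.9% of the 3 uninduced Ifnar1+/+ mice, while the ratio to B cell markers overlaps in every comparison.

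Between 138 and 192 V genes had a fragment in a mouse (mean 169). Mice labelled Ifnar1-/- on day 6 had 146 to 159, below the 168 to 172 of uninduced mice of that label, but they also had the fewest V fragments (1036 to 2417 against 2582 to 3301). At a shared depth of 1036 V fragments, the expected number was 144 ± 1.91 and 147 ± 2.37, with overlapping ranges. At this depth all 10 comparisons overlapped, and single mice ran from 129 to 159.

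Evenness of use overlapped between the groups. The effective number of V genes (unbiased inverse Simpson index of V fragments, which is the number of equally used genes that would give the same concentration) was 62.9 ± 6.61 over the 40 mice, with a range of 45.3 to 79.4. Group means lay between 60.3 (PBS day 4, Ifnar1+/+) and 64.5 (spermine day 4), and the ranges overlapped in all 10 comparisons. Within chains the effective number was 38.5 to 53.4 for Ighv and 31.6 to 45.0 for Igkv, again with overlap throughout.

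**Figure D3:**
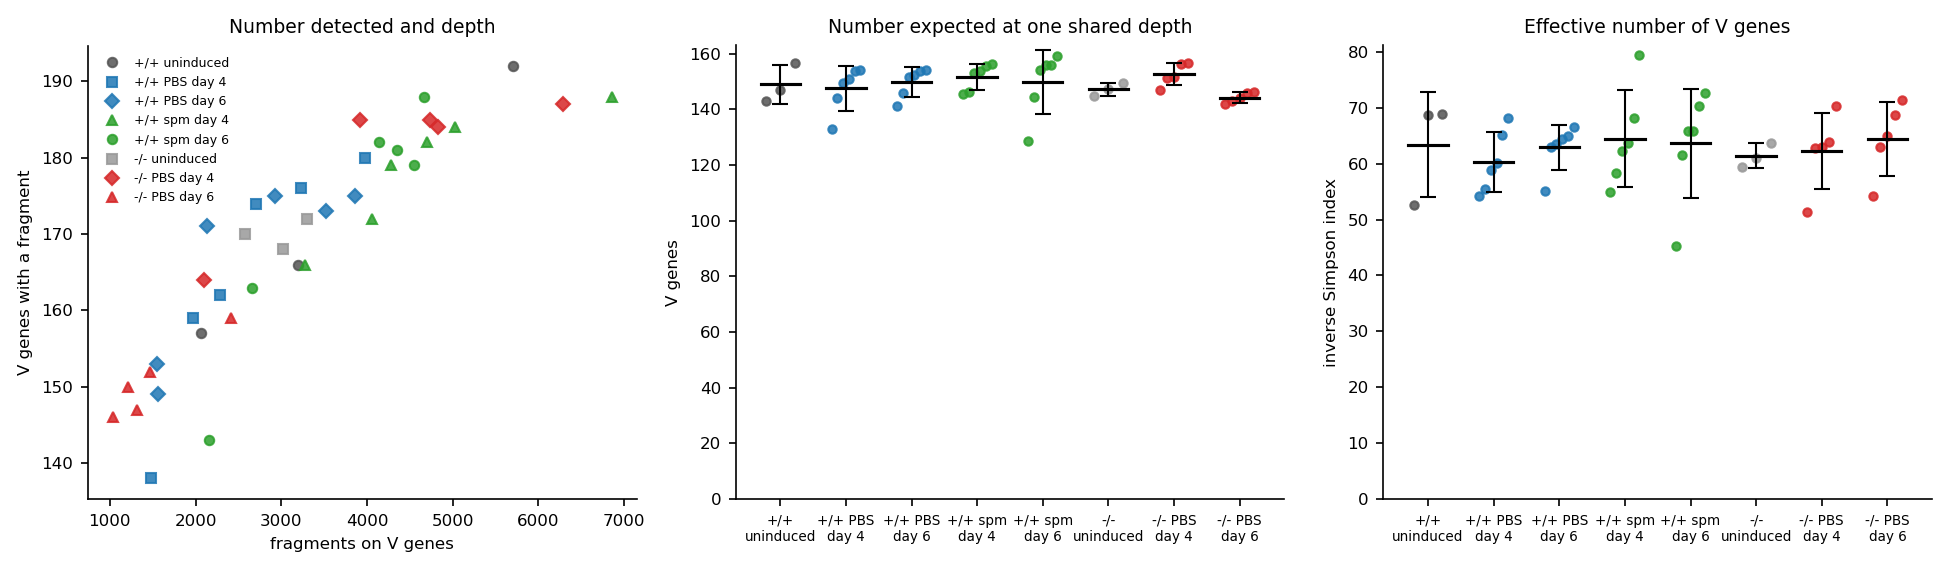
V genes with at least 1 fragment against the fragments on V genes of the library (left), the number expected at 1036 V fragments (middle) and the effective number of V genes (right), for each mouse (points; mean and SD as bars in the middle and right panels), with groups as in the plot of V sums. The number detected rises with depth from 138 to 192, while at the shared depth the mice lie between 129 and 159 and the effective number between 45.3 and 79.4, with no group apart.

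Single V genes were tested with limma on log2(FPKM + 1) in a joint fit of the 8 groups over 11829 genes with at least 1 FPKM in at least 3 libraries, with a call meaning an adjusted p (Benjamini-Hochberg) below 0.05. Of the 216 V genes, 178 passed this filter (90 Ighv, 85 Igkv and 3 Iglv). Over 10 comparisons there were 44 calls on 32 genes (13 Ighv, 16 Igkv and 3 Iglv), and all 44 were lower in the group named first. Of the 44, 12 held whichever mouse of the compared groups was left out. Log2 changes of single genes are on the log2(FPKM + 1) scale, ± SE. Each of the 44 called V gene changes stayed below the median of all genes tested when libraries were scaled to a fixed total. A fixed total scales all genes of a library alike, and the 44 were called as lower. Their place below that median was thus largely set beforehand and is no test of the calls. The comparisons share groups, such as the PBS-treated Ifnar1+/+ mice of day 4 in the genotype and the spermine comparison, so their calls are not independent.

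**Figure D4:**
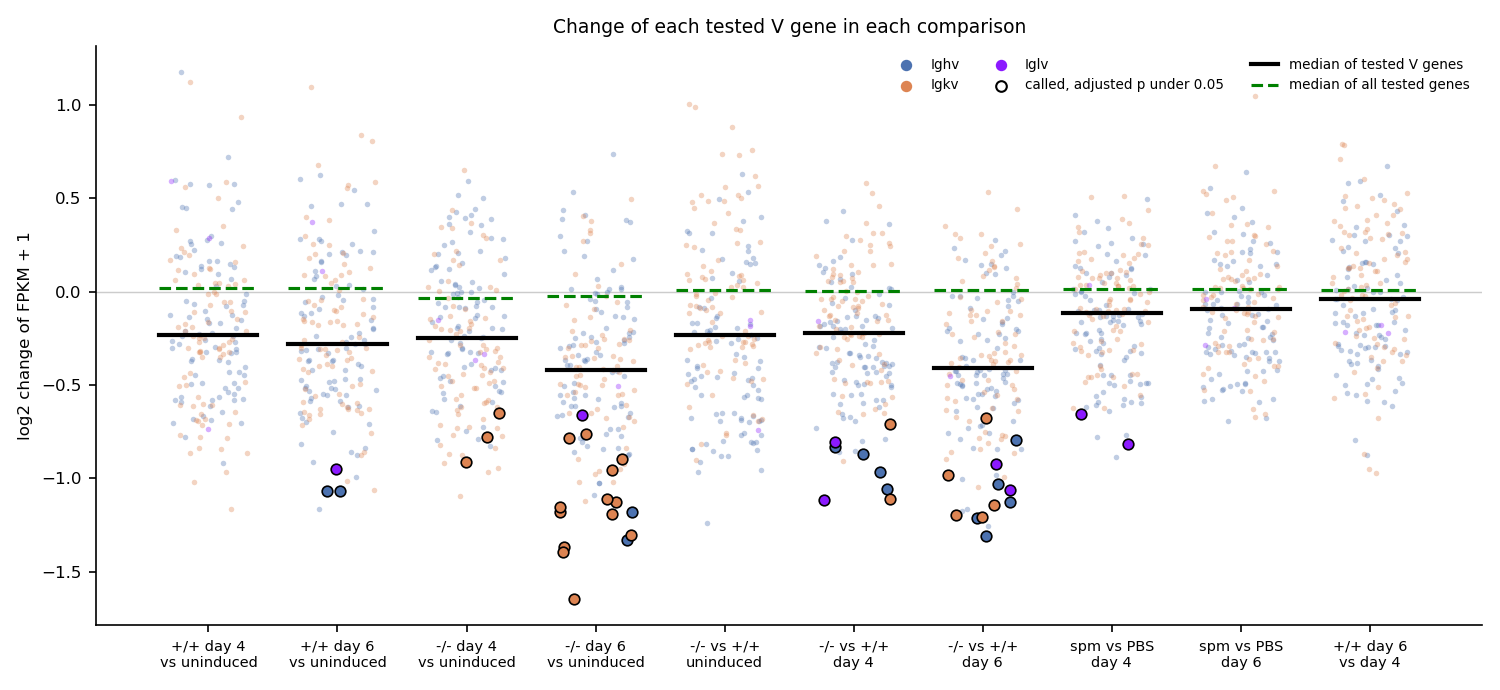
Log2 change of FPKM + 1 (vertical axis) of each of the 178 V genes tested (points, coloured by chain) in the 10 comparisons (horizontal axis), with calls ringed, the median of the V genes as a solid line and that of all 11829 genes as a dashed line. All 44 ringed calls are lower in the first group, and the V median lies below the median of all genes in each comparison. Under a fixed total of fragments 7 of the 44 calls turn above 0, all in day 4 comparisons.

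Pristane in Ifnar1+/+ mice went with few calls. On day 4, limma called 0 of 178 V genes (26 at an unadjusted p under 0.05), with 0.414% of all genes called lower and 1.68% higher. The median log2 change was -0.23 over the V genes and 0.02 over all genes. Leaving out uninduced mouse 1 gave 1 call, uninduced mouse 2 gave 2, and PBS day 4 mouse 1, 2, 4 or 6 gave 1. On day 6, 3 V genes were lower (1.69% of those tested, beside 2.58% of all genes) and 0 higher (5.59% of all genes), with a median of -0.28 against 0.02. The count was 5 without uninduced mouse 2, 1 without uninduced mouse 3 and 6 without PBS day 6 mouse 1, 3 or 5.

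Iglv3, the lambda V gene with its own sequence, was 58.4, 48.0 and 63.0 FPKM in uninduced Ifnar1+/+ mice and 19.2 to 52.4 FPKM on day 6 (median 25.2). A single mouse of day 6 (mouse 3, 52.4 FPKM) lay within the uninduced range. It fell by 0.95 ± 0.24 (adjusted p = 0.0106, limma), a call that ended without uninduced mouse 1 (adjusted p = 0.0634) or mouse 3 (0.0779). On day 4 it was 18.3 to 50.2 FPKM and missed the threshold (-0.74 ± 0.24, adjusted p = 0.113). Ighv1-76, a gene of the large Ighv1 family, fell from 5.24, 5.82 and 6.49 FPKM to 0.506 to 3.25 FPKM on day 6 (median 2.66), with no overlap (-1.07 ± 0.30, adjusted p = 0.0201). Its call ended without uninduced mouse 1 (0.0600), uninduced mouse 3 (0.0978) or PBS day 6 mouse 4 (0.0541). The other call was Ighv1-47 (mean 1.03 FPKM, -1.07 ± 0.31, adjusted p = 0.0281, with 0.136, 0.109 and 0.0677 when uninduced mouse 2, uninduced mouse 3 or PBS day 6 mouse 6 was left out). All 3 calls were also lost without 7 libraries of low mitochondrial share (under 1.2% of fragments other than hemoglobin), at adjusted p = 0.130 for Iglv3, 0.233 for Ighv1-76 and 0.238 for Ighv1-47. Under a fixed total without or with hemoglobin all 3 stayed lower but missed the threshold, at adjusted p = 0.0631 and 0.241 for Iglv3, 0.0617 and 0.208 for Ighv1-76, and 0.0699 and 0.228 for Ighv1-47.

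In mice labelled Ifnar1-/- the same comparison was made with uninduced mice of that label. On day 4, 3 V genes were lower (1.69%, beside 1.49% of all genes) and 0 higher (6.64% of all genes), all of them Igkv, with a median of -0.25 over the V genes and -0.03 over all genes. The count was 1 without day 4 mouse 1 or mouse 4. Under a fixed total with hemoglobin it was 0 lower and 1 higher, beside 30 and 2246 of all 11829 genes. On day 6, 16 V genes were lower (8.99%, beside 3.19% of all genes) and 0 higher (8.57% of all genes), of which 13 were Igkv (15.3% of the 85 tested), 2 Ighv and 1 Iglv. The median was -0.42 over V genes, -0.49 over Igkv genes and -0.02 over all genes. The count was 7 without uninduced mouse 1 or 3, 8 without uninduced mouse 2 and 10 without day 6 mouse 1 or 5.

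Igkv9-120 was called on both days, beside the same uninduced mice. It was 16.3, 16.2 and 15.1 FPKM in uninduced mice labelled Ifnar1-/-, then 4.41, 9.07, 8.39, 8.95 and 10.4 FPKM on day 4 and 7.91, 7.07, 5.15, 7.07 and 5.35 FPKM on day 6. Every mouse of either day lay below the uninduced mice. The log2 change was -0.91 ± 0.23 on day 4 (adjusted p = 0.00588, limma) and -1.18 ± 0.23 on day 6 (adjusted p = 0.000381), and leaving out any single mouse kept both calls. Under a fixed total the day 4 value missed the threshold, at -0.75 without hemoglobin (adjusted p = 0.223) and -0.29 with it (0.537). That of day 6 stayed called under both, at -1.61 (0.00216) and -1.49 (0.0157). Of its 50-base windows 25.33% occurred elsewhere, most in Igkv9-124. In share of V FPKM it was 1.86% in uninduced mice, 1.30% on day 4 and 1.2% on day 6, with every mouse of both days below all uninduced mice. Igkv9-120 was named for its calls against these same uninduced mice, so its share is no separate test. All 3 of them also lay above all uninduced Ifnar1+/+ mice in this share (mean 1.33%). On day 4 the share was higher in mice labelled Ifnar1-/- than in PBS-treated Ifnar1+/+ mice (1.30% against 1.03%).

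Igkv8-24, with no shared window, was 9.51, 12.1 and 13.1 FPKM without pristane and 5.40, 4.48, 1.92, 5.12 and 2.82 FPKM on day 6 (-1.40 ± 0.33, adjusted p = 0.00411, limma). The ranges did not overlap, and the call held in every fit that left out a mouse. On day 4 it was 7.99, 8.42, 2.75, 7.64 and 11.9 FPKM, overlapping with uninduced mice. Igkv6-17 and Igkv1-88 also kept their calls in each of those fits and are named after their values were seen. Igkv6-17 was 20.5, 20.5 and 20.0 FPKM without pristane and 12.6, 11.2, 7.79, 10.3 and 8.66 FPKM on day 6 (-0.96 ± 0.24, adjusted p = 0.00783). Igkv1-88 was 6.27, 3.88 and 1.52 FPKM without pristane and 0.454, 0.951, 0, 0.431 and 0.475 FPKM on day 6, where values of a few fragments set its change (-1.65 ± 0.35, adjusted p = 0.00150). Neither overlapped.

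Igkv1-117 and Igkv14-111 were called on both days but with little margin. Igkv1-117 was 35.7, 43.2 and 43.9 FPKM in uninduced mice, 22.1, 28.0, 23.9, 22.8 and 32.8 FPKM on day 4 and 19.5, 27.3, 15.9, 36.3 and 22.1 FPKM on day 6. Only mouse 4 of day 6 reached the uninduced range. Its change was -0.65 ± 0.21 on day 4 (adjusted p = 0.0490, limma), which turned to 0.0081 under a fixed total with hemoglobin, and -0.78 ± 0.21 on day 6 (adjusted p = 0.0116). The day 4 call ended in 7 of the 8 fits that left out a mouse (adjusted p up to 0.192, kept without day 4 mouse 5 only), and that of day 6 without uninduced mouse 2 (0.0665) or 3 (0.0674). Igkv14-111, which shares no window, was 14.2, 19.4 and 15.5 FPKM, then 8.46, 9.05, 10.6, 7.45 and 9.79 FPKM on day 4 and 7.59, 9.35, 9.88, 13.6 and 6.54 FPKM on day 6, without overlap. It changed by -0.78 ± 0.24 (adjusted p = 0.0389) and -0.76 ± 0.24 (adjusted p = 0.0353). These calls were kept on day 4 only without day 4 mouse 3 (adjusted p up to 0.227 otherwise), and on day 6 were lost without uninduced mouse 1 (0.0512), 2 (0.193) or 3 (0.0911) or day 6 mouse 1 (0.0703) or 5 (0.101).

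Among the other calls of day 6 in mice labelled Ifnar1-/-, Ighv6-3 was 13.1, 6.76 and 6.97 FPKM without pristane and 1.85, 2.90, 1.96, 6.13 and 2.41 FPKM with it (-1.33 ± 0.35, adjusted p = 0.00929, and 0.0879 without uninduced mouse 1, limma). Igkv1-135 was 32.5, 27.5 and 23.5 FPKM and then 17.1, 12.9, 13.5, 17.4 and 11.8 FPKM (-0.90 ± 0.23, adjusted p = 0.00675, and 0.0520 without uninduced mouse 1). Both sets of ranges were apart. Igkv3-2 (-1.19 ± 0.33, adjusted p = 0.0154) lost its call without uninduced mouse 1 (0.0745) or 3 (0.0583) or day 6 mouse 5 (0.0604), and in it day 6 mouse 1 (11.3 FPKM) lay within the uninduced range of 10.6 to 15.2 FPKM. Ighv1-18 (-1.18 ± 0.35, adjusted p = 0.0213, 8.11 to 12.6 FPKM without and 1.40 to 7.97 FPKM with pristane) lost it without uninduced mouse 1 (0.0942) or 2 (0.0880) or day 6 mouse 1 (0.0708). Igkv12-44 (-1.37 ± 0.43, adjusted p = 0.0343, 7.79 to 8.99 and 0.410 to 6.22 FPKM) lost it without any of the 3 uninduced mice (0.0934, 0.116 and 0.0885) or day 6 mouse 1 (0.111) or 5 (0.0946). The remaining 5, Igkv1-110, Igkv5-43, Igkv4-57-1, Igkv9-123 and Iglv1, had adjusted p from 0.0282 to 0.0375, and each was lost in 4 or more of the 8 fits that left out a mouse, at up to 0.203 for Iglv1.

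The difference between the pristane changes of the genotypes was itself tested. For day 4 limma called 0 of 178 V genes (10 at an unadjusted p under 0.05), beside 0.254% of all genes in either direction, and for day 6 it called 0 (12 unadjusted), beside 0.0254%. Hence the larger number of calls in mice labelled Ifnar1-/- is not shown to be a difference between genotypes. For Igkv9-120 and the other genes called on a single side, the pristane effect is likewise not shown to differ.

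Comparing the genotypes directly, no V gene was called without pristane (limma, 0 of 178, 17 at an unadjusted p under 0.05, beside 0.178% of all genes lower and 0.228% higher). Leaving out Ifnar1+/+ uninduced mouse 2 gave 2 calls. The median was -0.23 over the V genes, -0.42 over Ighv and -0.04 over Igkv genes, against 0.01 over all genes. On day 4 of pristane, 8 V genes were lower in mice labelled Ifnar1-/- (4.49%, beside 9.26% of all genes) and 0 higher (9.23% of all genes), with a median of -0.22 against 0.00. The count was 5 without mouse 2 or 3 labelled Ifnar1-/-. On day 6, 12 were lower (6.74%, beside 1.68% of all genes) and 0 higher (1.52% of all genes), of which 5 were Ighv, 5 Igkv and 2 Iglv, with a median of -0.41 against 0.01. That count was 7 without Ifnar1+/+ mouse 3, 5 without Ifnar1+/+ mouse 4 and 6 without mouse 1 labelled Ifnar1-/-. Scaling to a fixed total put the median of all genes on day 4 at 0.46 (without hemoglobin) or 0.70 (with it). Limma then called 13 or 32 V genes higher and 0 lower, beside 6455 or 8568 of all 11829 genes higher. On day 6 that median was -0.03 or -0.06, with 3 or 0 V genes lower, beside 97 or 57 of all genes. Relative to that median, the V genes' median was -0.23 as deposited, -0.28 and -0.30 on day 4, and -0.42, -0.38 and -0.36 on day 6.

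Iglv1 and Iglv2 had the smallest adjusted p of the V genes on both days. Iglv2 was 13.1 to 19.0 FPKM in PBS-treated Ifnar1+/+ mice of day 4 (median 16.3) and 6.64, 8.63, 5.07, 6.98 and 7.62 FPKM in those labelled Ifnar1-/-. On day 6 it was 11.2 to 17.6 FPKM (median 13.3) and 5.84, 6.58, 3.44, 10.2 and 5.63 FPKM. The ranges were apart on both days. The log2 difference was -1.11 ± 0.20 on day 4 (adjusted p = 0.000129, limma) and -1.06 ± 0.20 on day 6 (adjusted p = 0.00106). Without pristane Iglv2 was 15.8, 6.63 and 10.3 FPKM in Ifnar1+/+ mice and 6.93, 12.1 and 8.53 FPKM in mice labelled Ifnar1-/-, with overlap (-0.19 ± 0.27, adjusted p = 0.813).

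Iglv1 was 41.9 to 70.8 FPKM (median 52.5) in PBS-treated Ifnar1+/+ mice of day 4 and 34.3, 35.6, 23.1, 28.9 and 30.8 FPKM in those labelled Ifnar1-/-. On day 6 it was 36.7 to 66.8 FPKM (median 46.2) and 24.8, 22.4, 21.1, 35.9 and 20.7 FPKM. The ranges were again apart on both days, by less than 1 FPKM on day 6. The log2 difference was -0.81 ± 0.18 on day 4 (adjusted p = 0.00112, limma) and -0.93 ± 0.18 on day 6 (adjusted p = 0.00111). Without pristane the values were 49.5, 58.1 and 28.9 against 49.5, 35.9 and 33.8 FPKM (-0.15 ± 0.24, adjusted p = 0.824). No single mouse ended a call of Iglv1 or Iglv2 in these comparisons (adjusted p up to 0.00929).

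Scaling mattered for these genes on day 4. Under a fixed total Iglv1 was at -0.13 without and 0.20 with hemoglobin (adjusted p = 0.706 and 0.558) and Iglv2 at -0.48 and -0.18 (adjusted p = 0.137 and 0.615), so that neither was called and Iglv1 changed sign. Against the shifted median of all genes, Iglv1 was -0.81 as deposited, -0.58 and -0.50, and Iglv2 -1.12, -0.94 and -0.88. On day 6 both kept their direction under fixed totals (Iglv1 -0.97 and -1.02, adjusted p = 0.0820 and 0.152; Iglv2 -1.09 and -1.12, adjusted p = 0.0426 and 0.114, limma). Summed, Iglv1 and Iglv2 made up 8.32% of V FPKM in PBS-treated Ifnar1+/+ mice and 5.99% in mice labelled Ifnar1-/- on day 4, and 7.70% and 5.74% on day 6. On each day 4 of 5 mice labelled Ifnar1-/- lay below all Ifnar1+/+ mice. The pair was chosen for its calls between these groups, so these shares are no separate test. Without pristane the pair made up 5.82% in Ifnar1+/+ mice and 5.72% in mice labelled Ifnar1-/-, with overlap. Of the PBS-treated Ifnar1+/+ mice, 3 of 6 on day 4 and 2 of 6 on day 6 lay above all uninduced Ifnar1+/+ mice, and 0 below all. The difference in pristane change between genotypes missed the threshold for both (day 4, Iglv1 -0.65 ± 0.30 and Iglv2 -0.93 ± 0.34, adjusted p = 0.453 and 0.287, limma; day 6, -0.77 ± 0.30 and -0.88 ± 0.34, adjusted p = 0.749 for each).

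The constant genes of the lambda locus were not called. Iglc1, Iglc2 and Iglc3 differed between genotypes by -0.17 ± 0.30, 0.30 ± 0.37 and 0.50 ± 0.33 on day 4 and by -0.54 ± 0.30, -0.18 ± 0.37 and -0.04 ± 0.33 on day 6 (adjusted p of 0.301 or more, limma). Iglv3 was 18.3 to 50.2 against 26.2 to 33.0 FPKM on day 4 (-0.16 ± 0.21, adjusted p = 0.653) and 19.2 to 52.4 against 15.0 to 26.2 FPKM on day 6 (-0.45 ± 0.21, adjusted p = 0.282), with overlap on both days. Without pristane Iglv3 was 32.65 to 33.99 FPKM in mice labelled Ifnar1-/- and 48.0 to 63.0 FPKM in Ifnar1+/+ mice. These ranges were apart, but Iglv3 was not called there. Its share of V FPKM was 3.91% and 5.65%, with 3 of 3 mice labelled Ifnar1-/- below all Ifnar1+/+ mice. Whether Iglv1 and Iglv2 differ from Iglv3 in their genotype change was not tested. The lambda locus is on the same chromosome as Ifnar1, and a part of that position in these differences was not tested.

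**Figure D5:**
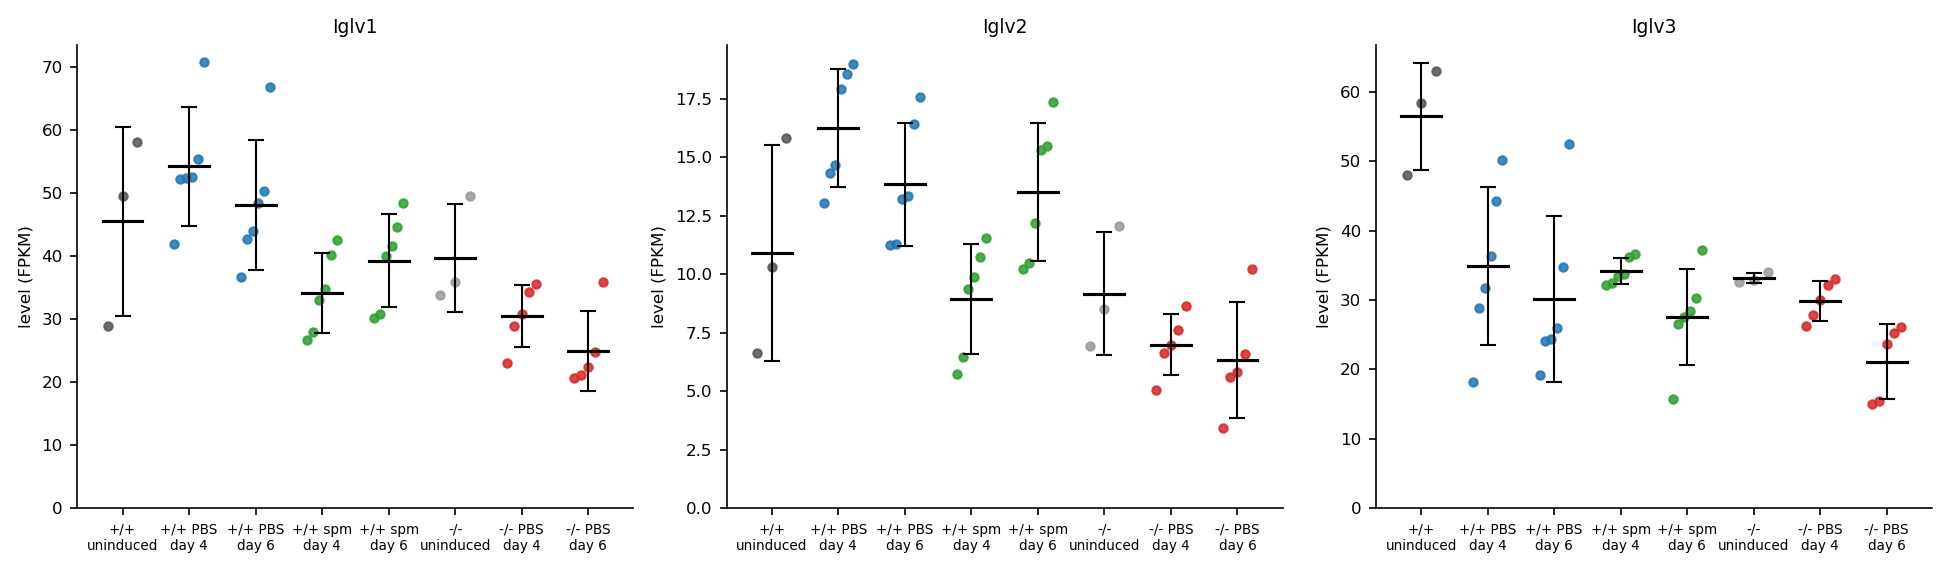
FPKM of Iglv1, Iglv2 and Iglv3 (vertical axes, as deposited) in each mouse (points) of the 8 groups, with mean and SD as bars. Iglv2 is 5.07 to 8.63 FPKM in mice labelled Ifnar1-/- on day 4 and 13.1 to 19.0 FPKM in PBS-treated Ifnar1+/+ mice, and Iglv3 is 48.0 to 63.0 FPKM in uninduced Ifnar1+/+ mice, a range that the highest PBS-treated mouse of day 4 (50.2) and of day 6 (52.4) enters; the day 4 difference of Iglv1 turns to a log2 value of 0.20 under a fixed total with hemoglobin.

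Igkv14-111 was the other V gene of the day 4 genotype comparison whose call no single mouse ended (adjusted p up to 0.0458). It was 10.2 to 22.5 FPKM in PBS-treated Ifnar1+/+ mice (median 14.8) and 8.46, 9.05, 10.6, 7.45 and 9.79 FPKM in mice labelled Ifnar1-/-, with 4 of 5 below all Ifnar1+/+ mice. Its difference was -0.71 ± 0.20 (adjusted p = 0.0123, limma), -0.07 under a fixed total without hemoglobin and 0.24 with it. Ighv14-2 (3.79 to 9.61 against 1.29 to 3.81 FPKM, -0.96 ± 0.28, adjusted p = 0.0125) lost its call without mouse 3 labelled Ifnar1-/- (0.0568), and Igkv13-85 (1.78 to 11.9 against 0.841 to 2.46 FPKM, -1.11 ± 0.32, adjusted p = 0.0128) without Ifnar1+/+ mouse 1 (0.0540). Ighv8-8 (-0.83 ± 0.27, adjusted p = 0.0266) and Ighv9-3 (-0.87 ± 0.31, adjusted p = 0.0482) overlapped between genotypes, turned to 0.027 and 0.076 under a fixed total with hemoglobin, and lost their calls in 5 and 8 of the 11 fits that left out a mouse (up to 0.0923 and 0.126). Ighv9-2, at a mean of 1.28 FPKM, was lost in 5 (adjusted p = 0.0312, up to 0.102). Without the libraries of low mitochondrial share, Ighv14-2, Igkv13-85, Ighv8-8, Ighv9-2 and Ighv9-3 were not called (adjusted p = 0.0719, 0.457, 0.285, 0.256 and 0.488), and Iglv1, Iglv2 and Igkv14-111 were.

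On day 6, Igkv3-5 was 3.46 to 11.3 FPKM in PBS-treated Ifnar1+/+ mice (median 3.97) and 3.01, 1.58, 1.83, 1.22 and 0.900 FPKM in mice labelled Ifnar1-/-, with no overlap. It differed by -1.2 ± 0.30 (adjusted p = 0.0178, limma), and the call was lost without Ifnar1+/+ mouse 3 (0.0587) or mouse 5 labelled Ifnar1-/- (0.0647). Igkv1-88 (-1.21 ± 0.29, adjusted p = 0.0148) also did not overlap and was lost without mouse 3 labelled Ifnar1-/- (0.0550). Igkv9-120 was 9.47 to 13.3 against 5.15 to 7.91 FPKM, with no overlap (-0.68 ± 0.19, adjusted p = 0.0357), but was lost in 5 of the 11 fits that left out a mouse (up to 0.111). Ighv1-9 (6.59 to 13.4 against 2.34 to 8.32 FPKM, -0.79 ± 0.22, adjusted p = 0.0385) was lost in 7 and Igkv1-110 (11.5 to 29.8 against 6.28 to 16.9 FPKM, -0.98 ± 0.29, adjusted p = 0.0494) in 8 of them (up to 0.177 and 0.161). The other 5 calls, Ighv1-42, Ighv1-66, Ighv1-59, Ighv1-78 and Igkv4-61, had mean levels of 1.04 to 2.49 FPKM and were each lost in 3 or more of these fits. Under a fixed total without hemoglobin, only Igkv1-88 (adjusted p = 0.0405, limma) and Ighv1-78 (0.0458) of the genes in this paragraph stayed called, and with hemoglobin 0 did. Without the libraries of low mitochondrial share, Igkv9-120, Ighv1-9, Ighv1-42, Ighv1-78 and Igkv4-61 were not called (0.0523, 0.0853, 0.0516, 0.134 and 0.111).

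On day 4, Iglv1 and Iglv2 were lower after spermine and pristane than after PBS and pristane as deposited, with Iglv1 turning higher under both fixed totals and Iglv2 under that with hemoglobin. They were the only V genes called as deposited (1.12% of 178, beside 6.48% of all genes lower), 0 were higher (2.65% of all genes), and the median of the V genes was -0.11 against 0.01 over all genes. Iglv2 was 5.73 to 11.5 FPKM (median 9.65) after spermine and 13.1 to 19.0 FPKM (median 16.3) after PBS, with no overlap. Its log2 change was -0.82 ± 0.19 (adjusted p = 0.00334, limma), and -0.12 or 0.15 under a fixed total without or with hemoglobin. Iglv1 was 26.7 to 42.5 FPKM (median 33.9) after spermine and 41.9 to 70.8 FPKM (median 52.5) after PBS, and the ranges touched in 1 mouse of each group. It changed by -0.65 ± 0.17 (adjusted p = 0.00768), and by 0.086 or 0.37 under the fixed totals, so that the direction turned. Relative to the median of all genes, which lay at 0.51 and 0.72 under these scalings, Iglv1 was -0.67 as deposited, -0.43 and -0.35, and Iglv2 -0.83, -0.64 and -0.58. Under them limma called 25 and 59 of 178 V genes higher and 0 lower, beside 7832 and 9163 of all 11829 genes higher. Both calls as deposited held whichever mouse was left out (adjusted p up to 0.0274). As a share of V FPKM the pair was 8.32% after PBS and 6.20% after spermine, with 3 of 6 spermine-treated mice below all PBS-treated ones. In uninduced Ifnar1+/+ mice it was 5.82%. The pair was chosen for its calls in these mice, so its share is no separate test.

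On day 6 no V gene was called between spermine and PBS (limma, 0 of 178, 11 at an unadjusted p under 0.05, beside 0.0254% of all genes lower and 0.0169% higher). Under the fixed totals 1 or 14 V genes were called higher, beside 218 or 3584 of all 11829 genes. Iglv2 was 10.2 to 17.4 FPKM after spermine and 11.2 to 17.6 FPKM after PBS (-0.04 ± 0.19, adjusted p = 0.944), and Iglv1 was 30.3 to 48.5 and 36.7 to 66.8 FPKM (-0.28 ± 0.17, adjusted p = 0.411). The change from day 4 to day 6 in the spermine effect was not called for any V gene (limma, 0 of 178, 7 unadjusted, beside 0.0169% of all genes), with 0.37 ± 0.24 for Iglv1 (adjusted p = 0.808) and 0.78 ± 0.27 for Iglv2 (adjusted p = 0.515). Between day 6 and day 4 of PBS-treated Ifnar1+/+ mice limma called 0 V genes (17 unadjusted, beside 0.169% of all genes lower and 0.304% higher), and 1 without day 4 mouse 5.

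The 32 called V genes were spread over the loci. Of the tested Ighv genes, 3 of 30 nearest to Ighm, 5 of 29 in the middle and 5 of 31 farthest were called in some comparison. Of the tested Igkv genes these were 8 of 34 on the strand of Igkc and 8 of 51 on the other strand. Of the 32, 24 were detected in all 40 mice, 26 shared some 50-base window with another V gene and 3 shared at least 50% of them.

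V genes known from B-1a cells that bind phosphatidylcholine, the innate-like B cells of the mouse body cavities, were also measured. Ighv11-2 was detected in 32 of 40 mice (0 to 2.84 FPKM), Ighv12-3 in 33 (0 to 8.07 FPKM), and their kappa partners Igkv14-126 (0.481 to 11.0 FPKM) and Igkv4-91 (0.480 to 9.74 FPKM) in all 40. A value of 0 allows up to 0.315 to 1.72 FPKM for a gene of 360 bases, from the lowest to the highest worth of 3 fragments in a library. None of the 4 was called in any of the 10 comparisons. Ranges apart, as in the kappa gene values that follow, are not a call, and their share over all genes was not counted. Igkv14-126 was 2.45 to 4.27 FPKM in Ifnar1+/+ mice on day 6 and 0.703 to 2.28 FPKM in uninduced ones (1.10 ± 0.37, adjusted p = 0.0582, limma). Igkv4-91 was 0.718 to 2.83 FPKM on day 6, against 3.11 to 5.27 FPKM in uninduced mice (-0.71 ± 0.40, adjusted p = 0.292) and against 3.20 to 8.57 FPKM after spermine on day 6 (spermine over PBS 1.05 ± 0.33, adjusted p = 0.0935). In mouse 5 labelled Ifnar1-/- on day 4, Ighv12-3 was 8.07 FPKM, where the other 4 mice of the group were 0.142 to 1.10 FPKM, and Igkv4-91 was 9.74 FPKM, where the others were 2.60 to 4.08 FPKM.

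Constant genes, which give the antibody class, were called in both directions. Of 12 such genes, 11 passed the filter. In uninduced mice labelled Ifnar1-/-, Igha, the IgA heavy chain gene, was 27.4, 36.7 and 35.1 FPKM, where uninduced Ifnar1+/+ mice had 5.67, 7.07 and 2.45 FPKM. The groups were apart, and the log2 difference was 2.57 ± 0.45 (adjusted p = 0.00226, limma). Ighg1 (1.21 ± 0.22, adjusted p = 0.00287) and Ighg2b (0.96 ± 0.23, adjusted p = 0.0419), both IgG heavy chain genes, were also higher. Jchain, which joins antibody units in secreting cells, went with them (2.23 ± 0.38, adjusted p = 0.00159). In the same comparison 0 of the 17 B cell markers and 0 of the 178 V genes were called.

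After pristane Igha in mice labelled Ifnar1-/- fell by 1.36 ± 0.41 on day 4 (adjusted p = 0.0288, limma) and by 1.44 ± 0.41 on day 6 (adjusted p = 0.0163). It was still higher than in PBS-treated Ifnar1+/+ mice on both days (1.90 ± 0.34, adjusted p = 9.3e-05, and 1.44 ± 0.34, adjusted p = 0.0108). Under the fixed totals without and with hemoglobin the Igha call of day 4 against uninduced mice was lost (adjusted p = 0.134 and 0.256), as was that of day 6 between genotypes (0.0739 and 0.204). Ighm, the IgM constant gene that most blood B cells transcribe, was lower in mice labelled Ifnar1-/- on day 4 (-0.42 ± 0.14, adjusted p = 0.0372) and day 6 (-0.50 ± 0.14, adjusted p = 0.0441) as deposited. Under the fixed totals its day 4 difference turned upwards (0.28 and 0.61, adjusted p = 0.302 and 0.039), and that of day 6 was not called (-0.55 and -0.60, adjusted p = 0.451 and 0.730). Igkc was called in none of the 10 comparisons.

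Of the 17 B cell markers, 6 were lower on day 6 of pristane in Ifnar1+/+ mice (beside 2.58% of all genes) and 7 in mice labelled Ifnar1-/- (beside 3.19%), and 0 on day 4 in both (limma, as deposited). Under a fixed total without or with hemoglobin the counts of day 6 were 2 and 0 in Ifnar1+/+ mice (beside 59 and 8 of all 11829 genes). In mice labelled Ifnar1-/- they were 16 and 0 (beside 1691 and 71). Between genotypes 7 were lower on day 4 as deposited (beside 9.26% of all genes), but under the fixed totals 1 and 13 were higher and 0 lower. There 6455 and 8568 of all 11829 genes were higher, and the median of all genes lay at 0.46 and 0.70. On day 6 the 4 that were lower (beside 1.68%) were Ms4a1, Fcer2a, Cr2 and Ralgps2, which encode the surface protein CD20, the low-affinity IgE receptor, complement receptor 2 and a signalling protein. Under the fixed totals 2 and 0 of the list were called lower on day 6, beside 97 and 57 of all genes. Cd22 and Fcrla, an inhibitory coreceptor gene and an Fc receptor-like gene, were lower after spermine on day 4 as deposited (beside 6.48% of all genes), and both turned higher under the fixed totals (0.41 and 0.69 for Cd22, 0.31 and 0.59 for Fcrla). There 14 and 17 of the list were higher, beside 7832 and 9163 of all 11829 genes, with the median of all genes at 0.51 and 0.72. The part of these marker changes in the V gene changes was not tested.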

How the data were processed

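Whole-blood poly(A) RNA of 40 mice was sequenced. Per the submitters' processing notes, reads were handled on GRCm38/mm10 with featureCounts 1.5.0-p3, DESeq2 1.20.0, CASAVA 1.8, HISAT2 2.0.5 and fastp (listed there with no order). The authors deposited FPKM per gene and library, from which whole fragments could be recovered (100% of nonzero values within a tolerance of 0.001). They were used as deposited, and the recovered fragments served for shares, detected numbers and evenness. The replicate numbers say no more than that the samples are biological replicates, so p-values measure the spread between these samples.

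All 8 groups were fitted together with limma 3.58.1 (R 4.3.3) on log2(FPKM + 1), for 11829 genes with at least 1 FPKM in at least 3 libraries, with Benjamini-Hochberg adjustment over all of them in each of 10 comparisons and 3 interactions. Sums, detected numbers and evenness were not tested. Python 3.11.15 made the tables. Scripts were tested on simulated data. Alternatives were fixed totals with and without hemoglobin, no filter, a pseudocount of 0.1, only the groups compared, voom on recovered fragments, a replicate block and each mouse left out. The 7 libraries under 1.2% mitochondrial share were left out as an alternative chosen after seeing the data. Chain sums, marker calls and constant genes under the fixed totals were also added after seeing the data.

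The V genes and gene lists were chosen with earlier results of these data known. Genes named are the 8 V genes of highest mean, up to 6 called V genes per comparison and direction with at least 5 FPKM in a compared group, the 4 B-1a V genes, any V gene over 10% of its chain in a mouse, constant genes, up to 4 called marker genes per comparison, and Ifnar1. Others named were chosen after their values were seen. Sequences are from GENCODE M21, whose coordinates were the same for all 216 genes. Intervals and floors cover counting error only.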

Additional observations from a re-analysis of the deposited data

Results flagged for a closer look

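In groups of 4 to 10 mice, 150 combinations of group and measure were checked for a mouse far from the rest of its group, and 17 were found. Chance gives about 1 in 20. For each, the value of that mouse is followed by the range of the others.

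Among PBS-treated Ifnar1+/+ mice, summed Igkv was 562 FPKM in day 4 mouse 6 (370 to 425). On day 6, mouse 3 had a summed Iglv of 137 FPKM (74.3 to 94.3), an effective number of V genes of 55.0 (62.9 to 66.6) and Ighv1-26 at 23.3 FPKM (14.3 to 17.0). Igkv1-135 was 11.3 FPKM in mouse 4 (18.1 to 21.8), and Igkv14-126 was 2.45 FPKM in mouse 5 (3.59 to 4.27).

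After spermine, day 4 mouse 2 had Igkv1-135 at 23.9 FPKM (11.9 to 15.8) and Igkv14-126 at 5.06 FPKM (1.58 to 2.74). On day 6, mouse 2 had a summed Ighv of 104 FPKM (247 to 281) and mouse 3 had Igkv14-126 at 4.57 FPKM (2.86 to 3.29).

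Among mice labelled Ifnar1-/- on day 4, mouse 1 had 164 V genes detected (184 to 187), mouse 2 had Igkv6-15 at 18.6 FPKM (14.2 to 15.4) and mouse 3 had Igkv10-96 at 10.5 FPKM (17.2 to 19.4). Mouse 5 had a ratio of summed V to B cell markers of 1.15 (0.860 to 0.944), Ighv12-3 at 8.07 FPKM (0.142 to 1.10) and Igkv4-91 at 9.74 FPKM (2.60 to 4.08). On day 6, Iglv1 was 35.9 FPKM in mouse 4 (20.7 to 24.8).

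Outside the 216 genes, 155 entries annotated as V pseudogenes held 6 to 107 fragments per mouse.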

How the results depend on the processing

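Counts of called V genes moved most with scaling. Under a fixed total without and with hemoglobin they were, in turn, 0 and 0 for Ifnar1+/+ day 6 against uninduced, 1 lower and 1 higher for day 4 and 40 and 6 lower for day 6 in mice labelled Ifnar1-/-, 13 and 32 higher for genotype on day 4, 3 and 0 lower for genotype on day 6, 25 and 59 higher for spermine on day 4, and 1 and 14 higher for spermine on day 6. Beside them, 59 and 8 of all 11829 genes were lower for Ifnar1+/+ day 6 (102 and 51 higher). In mice labelled Ifnar1-/-, 86 were lower and 2246 higher for day 4, and 1691 and 71 lower for day 6. For genotype, 6455 and 8568 were higher on day 4 and 97 and 57 lower on day 6. For spermine, 7832 and 9163 were higher on day 4 and 218 and 3584 on day 6. With no filter the counts of V genes were 10 (day 6 against uninduced, labelled Ifnar1-/-), 1 higher (uninduced genotypes), 5 (genotype, day 4) and 6 (genotype, day 6). Fitting only the groups compared gave 9 and 8 for day 4 and day 6 in mice labelled Ifnar1-/- and 6 for genotype on day 6. With voom they were 1 (Ifnar1+/+ day 6), 5 (day 4, labelled Ifnar1-/-) and 3 (genotype, day 6). Without the libraries of low mitochondrial share they were 0 (Ifnar1+/+ day 6), 7 and 29 (day 4 and day 6, labelled Ifnar1-/-) and 4 (genotype, day 4).

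Same-numbered mice did not pair (median correlation of deviations 0.011 over 120 pairs, 33 above 0.1). A replicate block gave 6 calls (1 higher, 5 lower) for Ifnar1+/+ day 6 and 7 for genotype on day 6.

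Leaving out a mouse gave 0 to 2 calls (Ifnar1+/+ day 4), 1 to 6 (day 6), 1 to 4 and 7 to 18 (labelled Ifnar1-/-, day 4 and 6), 0 to 2, 5 to 10 and 5 to 11 (genotype without pristane, day 4 and 6) and 0 to 1 (day 6 against day 4).

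The log2 ratio of summed V under the fixed totals was -0.57 and -0.60 (Ifnar1+/+ day 4), -0.55 and -0.57 (day 6), -0.24 and 0.28 and then -1.12 and -0.99 (labelled Ifnar1-/-, day 4 and 6), -0.11 and -0.30, 0.22 and 0.59, and -0.68 and -0.73 (genotype without pristane, day 4 and 6), 0.43 and 0.73 and 0.20 and 0.42 (spermine, day 4 and 6) and 0.02 and 0.04 (day 6 against day 4). Differences in V genes detected became -7.27, -8.43, -24.6 and -5.17 with at least 1 FPKM (labelled Ifnar1-/- day 4, genotype day 4 and 6, spermine day 4) and -2.99 and -5.62 at a shared depth (labelled Ifnar1-/- day 6, genotype day 6). Among single genes, Igkv1-117 turned with hemoglobin on day 4 against uninduced mice, both labelled Ifnar1-/- (0.0081). Those that turned for genotype on day 4 were Iglv1 (0.20), Igkv14-111 (0.24), Ighv9-3 (0.076) and Ighv8-8 (0.027). Those for spermine on day 4 were Iglv1 (0.37, and 0.086 without hemoglobin) and Iglv2 (0.15). The causes were not tested. Depth limits genes of few fragments, and short reads limit the split between near-identical V genes.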
